A study of Mus musculus with 58 samples.

Results

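The diaphragm lies against the liver, and part of the diaphragm arrays of this study carried transcripts of hepatocytes, the main cells of the liver. This account describes the tumour response in the diaphragm arrays in which the log2 value of Alb, the gene of the plasma protein albumin and the most abundant hepatocyte transcript, lay below 9. Of the 29 diaphragm arrays, 14 met that limit, out of 58 arrays in the series. The limit kept 8 arrays of tumour-bearing mice and 6 of sham mice. A comparison within cohorts was possible in 3 of the 4 cohorts, with 8 tumour-bearing and 5 sham arrays.

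All mice were adult female NSG mice, an immunodeficient strain that lacks mature B, T and natural killer cells but keeps macrophages, neutrophils and mast cells. In the tumour-bearing group (PDX, patient-derived xenograft), pieces of a human pancreatic ductal adenocarcinoma were attached to the pancreas, and each of the 4 cohorts received tissue of 1 patient. Sham mice, the reference of each cohort, were operated on without receiving tumour. Mice were killed once the tumour-bearing animals were severely cachectic, that is, wasted in muscle and fat, or the tumour had passed 3 cm across. Total RNA of whole muscle was measured on arrays with 1 probe set per gene, and the second muscle, the tibialis anterior of the lower leg, is used here only as a comparison. In cohort 2 the limit kept 3 PDX and 2 sham arrays, in cohort 3 it kept 3 PDX and 1 sham array, and in cohort 4 it kept 2 PDX and 2 sham arrays. Cohort 1 kept 1 sham array and 0 PDX arrays and entered no fit. The labels do not say that each array comes from a separate animal, so the p-values rest on the spread between arrays, which may be technical.

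In inflammation the liver secretes acute-phase proteins, such as serum amyloid A, haptoglobin and the fibrinogen chains, under the control of interleukin-6, STAT3, C/EBP factors and NF-kB. Skeletal muscle also responds to these signals, and muscle of cachectic animals is known for raised transcripts of Serpina3n and Lcn2. In an array of whole diaphragm, liver RNA would add to the same transcripts, which is why the arrays with little Alb are described on their own.

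The arrays were chosen by their Alb value, so Alb and the other hepatocyte markers are given as a description. Among the fitted arrays, Alb had a lowest, median and highest log2 value of 5.27, 6.34 and 8.05 in PDX arrays, and values of 5.45, 7.0, 7.37, 7.53 and 7.71 in sham arrays. The value just inside the limit was 8.05, in a PDX array of cohort 2, and the value just outside was 9.99, in a PDX array of cohort 3. The excluded arrays held Alb between 9.99 and 12.38 in PDX mice and between 10.75 and 12.40 in sham mice. In the tibialis anterior, Alb lay between 4.02 and 9.44 in PDX mice and between 3.69 and 9.30 in sham mice, with 3 tibialis anterior arrays above 9. The medians there were 6.30 in PDX mice and 4.91 in sham mice, against 6.34 in the kept PDX and 7.37 in the kept sham diaphragm arrays.

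Of 46 hepatocyte markers listed, 42 were measured. Their mean log2 level was 3.21 to 3.49 in the kept PDX arrays and 3.25 to 3.62 in the kept sham arrays, against 4.56 to 9.14 in the excluded PDX arrays and 5.23 to 8.68 in the excluded sham arrays. In the tibialis anterior the same mean ran from 2.98 to 4.37 in PDX mice and from 2.95 to 4.04 in sham mice. The upper ends came from tibialis anterior arrays with Alb above the limit of 9. Such arrays were not left out here or in the next count. For 36 of the 42 markers the highest kept diaphragm value was not above the highest tibialis anterior value, and 30 of the 42 had a median below 3.78, the median of all values on the arrays. The 6 exceptions were Fetub, Cyp2e1, Mup3, Pck1, Hal and Rbp4. Hal, which starts the breakdown of histidine, had a lowest, median and highest value of 5.19, 5.49 and 7.08 in PDX arrays against 3.97, 4.68 and 5.27 in sham arrays. Pck1, a key enzyme of glucose synthesis that fat cells also express, had 3.40, 4.49 and 5.54 in PDX arrays against 4.47, 5.22 and 7.11 in sham arrays. Because the arrays were chosen by low Alb, low hepatocyte markers follow from the choice and cannot test whether liver RNA was absent. The marker mean of the kept arrays lay within the range of limb muscle. Its median was higher in the kept diaphragm arrays than in the tibialis anterior, in PDX and in sham mice. Alb was not at the floor of the arrays, so a small amount of liver RNA is not excluded.

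Across the 23185 genes with a name, 654 (2.82%) differed between PDX and sham in the kept arrays in limma after Benjamini-Hochberg adjustment (adjusted p under 0.05), the rule called passing here. Of these, 304 (1.31%) were higher and 350 (1.51%) were lower in PDX mice, and 618 of the 654 had the same sign in all 3 cohorts. The effect is the difference of mean log2 values within a cohort, averaged over cohorts with equal weight, and its median over all genes was -0.003. Every PDX array lay above or below every sham array for 533 genes (2.30%). The effects differed between the 3 cohorts for 10 genes (0.0431%) by an F test, against 2334 genes at an unadjusted p under 0.05. The latter is more than that threshold gives by chance over all genes.

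One library bears on many of these calls, though it is not alone in this. The sham array of cohort 3, the single sham array that cohort kept, had the lowest mean correlation with the other fitted arrays, 0.973. Without it cohort 3 can no longer be fitted, and 35 genes passed (18 higher, 17 lower), of which 24 were among the 654; 648 of the 654 kept their sign. The PDX array of cohort 2 numbered 5 followed at 0.974 and held the highest value of several inflammatory genes named below. Leaving out any 1 of the 13 arrays gave between 35 and 1019 passing genes, and 17 genes passed in all 13 of these fits. Without another sham array the count also fell, to 53 or 82 for those of cohort 2 and to 153 or 58 for those of cohort 4. A call lost without the cohort 3 sham array is therefore not shown to rest on that array alone. The counts per list below are those with this sham array. Without it, 2 genes of the acute-phase list and 1 mesothelial marker passed higher. On the lower side 2 glycolysis and glycogen genes, 1 insulin and IGF signalling gene, 1 heat shock gene, 2 mast cell markers and 1 adipocyte marker passed, and every other list had 0 calls.

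The acute-phase list, chosen with earlier results of these data known, held 39 genes, of which 34 were measured and the others were not analysed here. It also contains the cytosolic metallothioneins and the membrane proteins Cd14 and F3. In the kept PDX arrays 9 of the 34 were higher than in sham arrays and 0 were lower, a share of 26.5% against 1.31% of all genes. Without the cohort 3 sham array 2 of the 34 passed, Serpina3n and Apod, and the list's median was 0.58. The list's median log2 difference was 0.43 against -0.003 over all genes. The 9 genes were Serpina3n, Lcn2, Mt2, Lbp, Apod, Cfb, Cd14, Lrg1 and Serping1.

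Serpina3n, a secreted inhibitor of serine proteases such as granzyme B and elastase, showed the largest difference of any passing gene. Its lowest, median and highest log2 value was 7.92, 9.61 and 10.96 in PDX arrays, against 5.57, 5.72, 5.75, 6.10 and 6.32 in sham arrays. The groups did not overlap, and the lowest PDX value was in the cohort 2 array with the most Alb of the kept arrays. The mean difference was 3.75 (SE 0.41, adjusted p = 0.00421), a 13.5-fold higher level, and it was 3.66, 3.48 and 4.12 in cohorts 2, 3 and 4. Without the cohort 3 sham array the difference was 3.89 (adjusted p = 0.0400). The 1 kept sham array of cohort 1, which has no PDX partner, stood at 7.33, above the other kept sham arrays and below all kept PDX arrays.

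Lcn2, lipocalin 2, a secreted protein that binds bacterial iron carriers, had a lowest, median and highest value of 6.90, 8.41 and 9.68 in PDX arrays, against 5.68, 6.20, 6.31, 6.53 and 6.71 in sham arrays. The PDX arrays lay above the sham arrays, though the lowest by a narrow margin. The difference was 2.28 (SE 0.40, 4.87-fold, adjusted p = 0.0183). It was 2.14 without the cohort 3 sham array (adjusted p = 0.0702). The cohort 1 sham array had 8.21, which is within the range of the PDX arrays. Lcn2 is also a neutrophil granule gene, and the other 16 of 17 neutrophil markers did not pass. The 1 call is 5.88% of that list, against 1.31% of all genes. The mean of the 17, which includes Lcn2 itself, was 2.94 to 3.45 in PDX arrays and 2.88 to 3.13 in sham arrays. Of the 17, 14 had a positive difference, and the median difference was 0.16. As examples that go opposite ways, S100a8 had a median of 1.72 in PDX and 1.55 in sham arrays, and Retnlg had 2.43 in PDX and 2.54 in sham arrays. All of these lay below the median of all values on the arrays, and 14 of the 17 markers had a PDX or sham mean below it. The part of neutrophils in the Lcn2 difference was not tested.

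Lbp, the lipopolysaccharide-binding protein, had a lowest, median and highest value of 6.67, 7.43 and 8.96 in PDX arrays, against 5.49, 5.70, 5.83, 5.94 and 5.97 in sham arrays. Its difference was 1.87 (SE 0.35, 3.65-fold, adjusted p = 0.0230), with no overlap and nearly the same value in each cohort, 1.90, 1.82 and 1.88. It was 1.89 without the cohort 3 sham array, where it no longer passed (adjusted p = 0.0771). Apod, apolipoprotein D, a carrier of small lipids, had 6.54, 7.64 and 8.18 in PDX arrays, against 6.0, 6.04, 6.05, 6.06 and 6.13 in sham arrays. The sham arrays were tightly grouped and all PDX arrays lay above them. The difference was 1.49 (SE 0.15, 2.81-fold, adjusted p = 0.00260), and Apod, like Serpina3n, still passed without the cohort 3 sham array (1.33, adjusted p = 0.0400).

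Cfb, factor B of the alternative complement pathway, had 6.49, 7.25 and 8.20 in PDX arrays, against 5.54, 5.88, 5.96, 6.09 and 6.45 in sham arrays, again without overlap. The difference was 1.36 (SE 0.22, 2.56-fold, adjusted p = 0.0155). Serping1, the inhibitor of the first complement component, differed by 0.74 (adjusted p = 0.0354), and Lrg1, a secreted glycoprotein that modulates TGF-beta signalling, by 0.81 (adjusted p = 0.0352). Cd14, the lipopolysaccharide co-receptor of macrophages, differed by 0.93 (adjusted p = 0.0474), but its highest sham value, 6.76, lay within the PDX range of 6.02 to 7.59. Mt2, a metal-binding protein, had 5.87, 7.47 and 8.87 in PDX arrays, against 5.04, 5.32, 5.65, 5.73 and 6.28 in sham arrays. Its difference was 1.95 (SE 0.41, 3.87-fold, adjusted p = 0.0335), and 1 sham array lay inside the PDX range. Without the cohort 3 sham array Cfb (adjusted p = 0.0593), Serping1 (0.0867), Lrg1 (0.132), Cd14 (0.124) and Mt2 (0.109) no longer passed, with differences of 1.32, 0.76, 0.67, 0.89 and 1.77.

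Some members had large differences that did not pass. Saa3, the serum amyloid A made outside the liver in mice, had a lowest, median and highest value of 4.73, 7.42 and 10.04 in PDX arrays, against 4.56, 4.82, 5.21, 5.36 and 5.51 in sham arrays. All but 1 of the 8 PDX arrays were above every sham array, and the exception, of cohort 3, was at the sham level. The difference was 2.59 (SE 0.67) with an adjusted p of 0.0585. Timp1, an inhibitor of matrix metalloproteinases, differed by 1.62 (adjusted p = 0.139), with 7.67 in 1 PDX array of cohort 2 and 3.13 to 5.37 in the others. Mt1 differed by 1.17 (adjusted p = 0.0700) and Cp, the copper-carrying ferroxidase ceruloplasmin, by 0.62 (adjusted p = 0.0746).

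The genes best known as products of the inflamed liver did not pass. Saa1 had a median of 2.19 in PDX and 1.69 in sham arrays, and Saa2 had 1.87 in PDX and 2.16 in sham arrays, all below the median of all values on the arrays. Orm1, an orosomucoid, had a lowest, median and highest value of 3.56, 4.16 and 4.56 in PDX arrays, against 3.92, 4.06, 4.13, 4.57 and 4.89 in sham arrays, with a difference of -0.24 (adjusted p = 0.583). Hp, haptoglobin, differed by 0.49 (adjusted p = 0.406) and the haem carrier Hpx by -0.11 (adjusted p = 0.758). The fibrinogen chains Fga, Fgb and Fgg differed by -0.11, -0.03 and -0.07, and Crp and Apcs, both pentraxins, by 0.15 and -0.12, none of which passed. Of the 34 measured members, 17 had a mean below the median of all values.

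**Figure D1:**
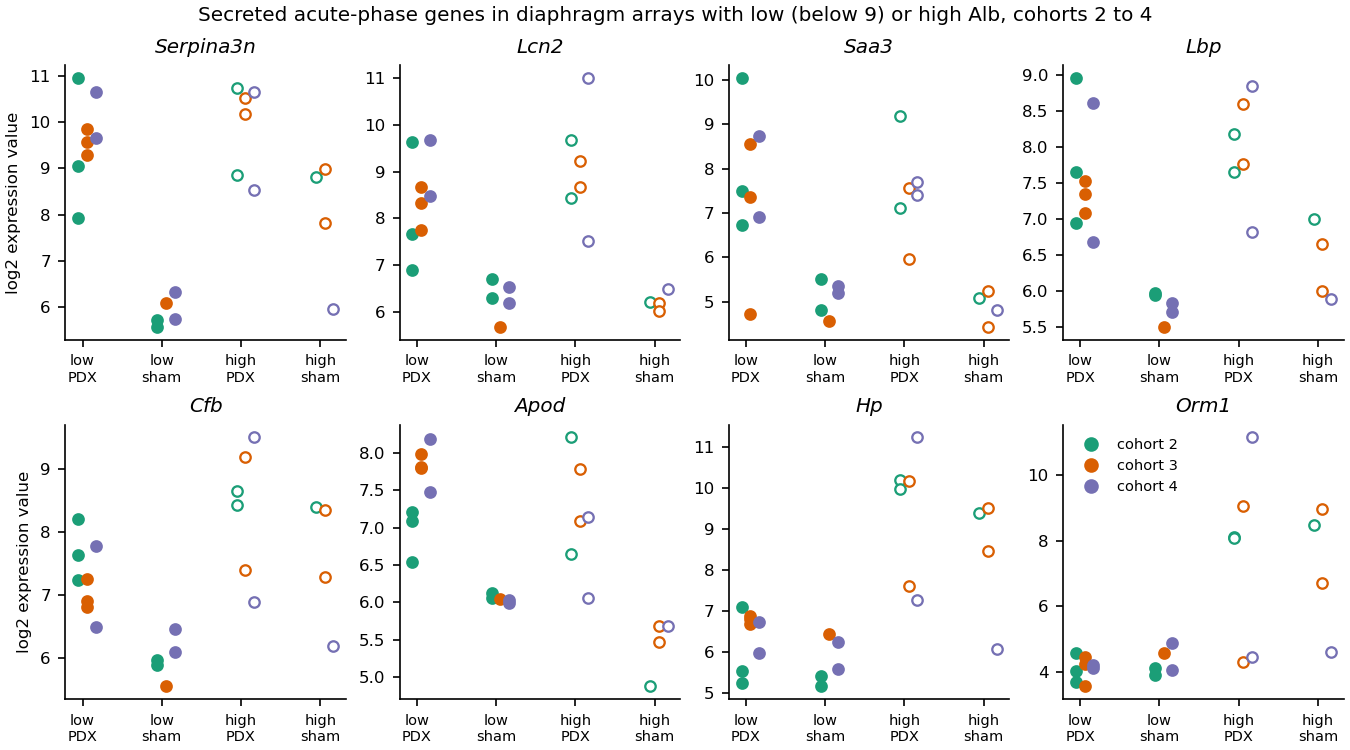
Log2 values of 8 acute-phase genes in each diaphragm array of cohorts 2 to 4, by Alb class and treatment, with cohorts in colour; filled points are the kept arrays (Alb below 9) and open points the excluded ones. Serpina3n, Lcn2, Lbp, Cfb and Apod lie higher in every kept PDX array than in any kept sham array, whereas Hp and Orm1 overlap in the kept arrays and are spread widely in the excluded ones.

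The excluded arrays show what the limit removed. Serpina3n had a lowest, median and highest value of 8.54, 10.36 and 10.76 in the excluded PDX arrays and of 5.95, 8.71 and 9.38 in the excluded sham arrays of all cohorts, against at most 6.32 in the kept sham arrays of the fitted cohorts. In cohorts 2 to 4 its tumour effect was 2.19 (SE 0.55) in the excluded arrays, and the kept minus excluded effect was 1.56 (SE 0.75, unadjusted p = 0.0548). Hp reached a median of 9.99 in excluded PDX and 8.76 in excluded sham arrays, and Orm1 a median of 8.09 in excluded PDX and 8.24 in excluded sham arrays. The effects of Lcn2, Lbp and Apod in the excluded arrays were 2.82 (SE 0.67), 1.58 (SE 0.43) and 1.78 (SE 0.37), near those in the kept arrays. Over all genes the kept and excluded effects differed for 0 genes (0.00%) by limma. At an unadjusted p under 0.05 there were 800 genes, fewer than that threshold gives by chance over all genes. The test held 6 PDX and 4 sham excluded arrays, whose hepatocyte marker mean varied widely (4.56 to 9.14 in PDX arrays), which adds to its error. The 0 calls therefore do not show that the effects are equal. Fitting all diaphragm arrays of these cohorts together gave 1501 passing genes (6.47%), of which 497 were among the 654.

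**Figure D2:**
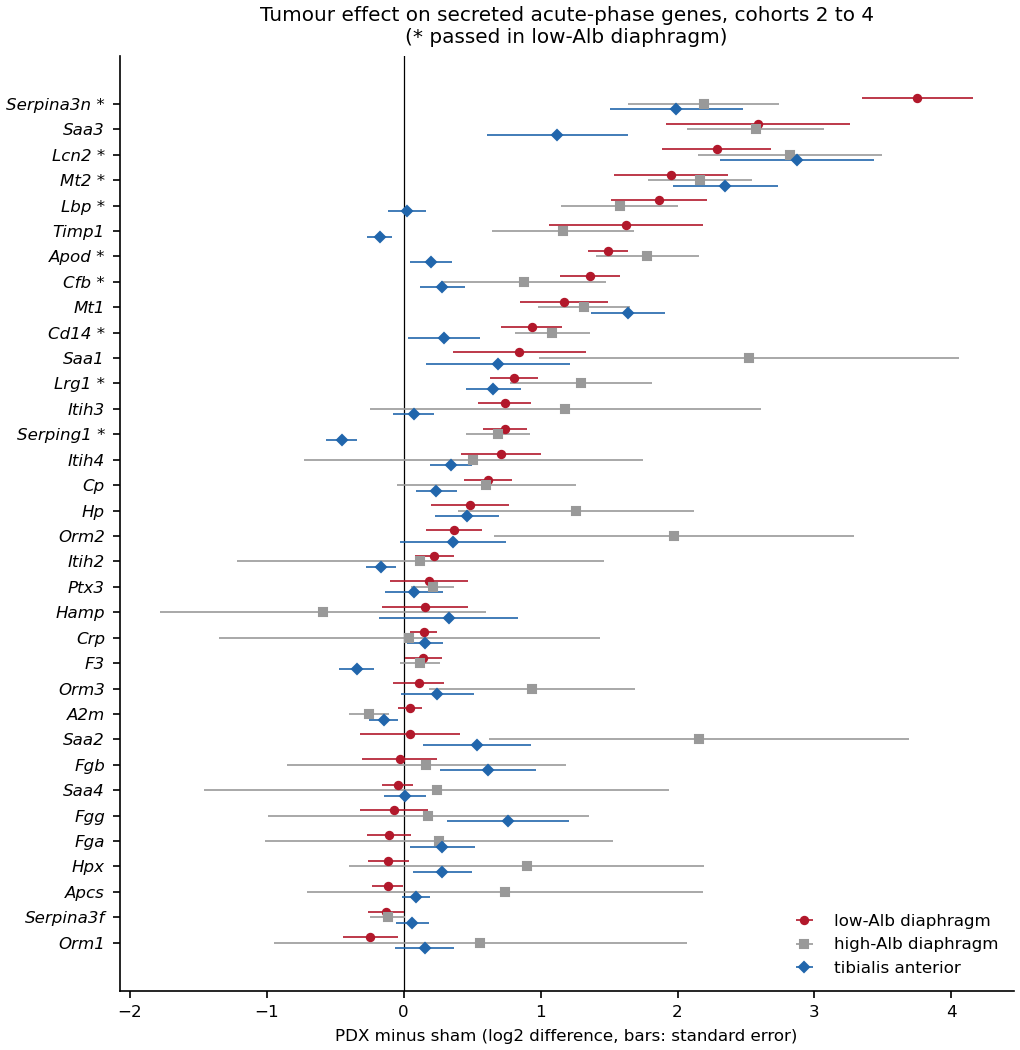
PDX minus sham log2 difference, with bars for the standard error, of the 34 measured acute-phase genes in the kept diaphragm arrays (red circles), the excluded diaphragm arrays (grey squares) and the tibialis anterior (blue diamonds) of cohorts 2 to 4. Liver-type genes such as Orm1, Fga and Hpx lie near 0 with short bars in the kept arrays and have long bars in the excluded ones, and a star marks the 9 genes that passed in the kept arrays.

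In the tibialis anterior of the same cohorts, 1426 genes passed (6.15%). The kept diaphragm effect differed from the tibialis anterior effect for 515 genes (2.22%), of which 5 belong to the acute-phase list. Lbp had an effect of 1.87 in the kept diaphragm arrays and of 0.02 in the tibialis anterior, a difference of 1.84 (SE 0.34, adjusted p = 0.00307). Apod differed by 1.29 (SE 0.25, adjusted p = 0.00420) and Cfb by 1.08 (SE 0.29, adjusted p = 0.0477). Serping1 was higher in the PDX diaphragm and lower in the PDX tibialis anterior (0.74 against -0.45), a difference of 1.19 (SE 0.20, adjusted p = 0.00156). Timp1 differed by 1.80 (SE 0.46, adjusted p = 0.0348). Lcn2, Mt2 and Serpina3n passed in both muscles, with tibialis anterior effects of 2.88, 2.35 and 1.99, and their effects did not differ between the muscles by this test (adjusted p = 0.839, 0.857 and 0.290). With cohort 3 left out of both muscles, a fit chosen after seeing the data, Lbp, Apod and Serping1 still differed, by 2.00, 1.13 and 0.99 (adjusted p = 0.0244, 0.0379 and 0.0223). Cfb (0.99, adjusted p = 0.0757) and Timp1 (2.25, adjusted p = 0.0722) then no longer passed, and Serpina3n (2.42, adjusted p = 0.0489) and Saa3 (2.38, adjusted p = 0.0444) did.

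Promoters of 4 genes that passed higher are shown because they hold matches to motifs of the acute-phase, glucocorticoid or metal response. They were picked with the matches known, from 12 named genes with a window out of 16 looked up. Each window holds the 250 bases before the transcription start of the RefSeq gene (GRCm38.p6), read 5′ to 3′ on the gene's strand. The Serpina3n window is chr12:104406458-104406707 (plus strand), that of Lcn2 is chr2:32387740-32387989 (minus strand) and that of Socs3 is chr11:117969367-117969616 (minus strand). In these, capitals mark matches on either strand to the STAT motif TTCNNNGAA, the C/EBP motif TTGCNNAA, the NF-kB motif (GGG, 3 free bases, TTCC) or the glucocorticoid response motif (GNACA, 3 free bases, TGTNC), where N is any base. The Mt2 window is chr8:94172368-94172617 (plus strand), with capitals for the metal response motifs TGCACNC and TGCGCNC alone.
Serpina3n: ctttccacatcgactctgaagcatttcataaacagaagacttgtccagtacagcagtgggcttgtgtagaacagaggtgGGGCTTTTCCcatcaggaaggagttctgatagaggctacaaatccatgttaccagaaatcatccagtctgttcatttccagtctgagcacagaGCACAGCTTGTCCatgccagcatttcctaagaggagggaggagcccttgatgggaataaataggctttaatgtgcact
Lcn2: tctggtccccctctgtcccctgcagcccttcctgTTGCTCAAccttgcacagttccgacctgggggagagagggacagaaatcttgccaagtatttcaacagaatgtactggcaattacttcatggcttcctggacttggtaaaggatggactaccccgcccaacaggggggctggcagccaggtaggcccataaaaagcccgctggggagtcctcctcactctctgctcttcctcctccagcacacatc
Socs3: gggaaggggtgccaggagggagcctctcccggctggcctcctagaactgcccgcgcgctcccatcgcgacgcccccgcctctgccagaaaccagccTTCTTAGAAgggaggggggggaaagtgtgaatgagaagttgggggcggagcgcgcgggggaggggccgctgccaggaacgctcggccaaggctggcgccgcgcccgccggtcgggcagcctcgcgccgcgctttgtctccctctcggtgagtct
Mt2: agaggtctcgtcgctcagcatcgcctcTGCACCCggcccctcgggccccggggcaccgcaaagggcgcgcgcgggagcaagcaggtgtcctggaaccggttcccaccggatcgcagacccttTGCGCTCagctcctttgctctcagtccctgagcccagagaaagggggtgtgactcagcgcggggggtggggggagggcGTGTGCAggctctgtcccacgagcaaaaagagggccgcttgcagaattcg

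The Serpina3n window holds 1 NF-kB match, which starts at base -171 from the start site, and 1 glucocorticoid response match, which starts at base -78. The Lcn2 window holds 1 C/EBP match at -216, the Socs3 window 1 STAT match at -154 and the Mt2 window 3 metal response matches and 1 C/EBP match at -12. The windows of Apod, Clca3a1 and Osmr held none of the motifs searched, which also included a heat shock motif (GAA, 2 free bases, TTC, 2 free bases, GAA) and the E-box CACGTG. The windows of Hsph1 held no match other than 1 E-box. That of Hspe1, the other chaperone gene that passed lower, held 2 overlapping heat shock matches, at -89 and -84. It also held 1 NF-kB match at -75 and 1 metal response match at -239. Of 32851 mouse promoter windows of this length, 7.02% hold the STAT motif, 9.56% the C/EBP motif, 4.65% the NF-kB motif, 0.387% the glucocorticoid response motif, 21.4% a metal response motif, 0.466% the heat shock motif and 6.02% the E-box. A match describes the letters of the window and is not evidence of binding in these samples.

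Receptors and transcription factors that relay the acute-phase signal were among the genes that passed. Of 28 measured genes of acute-phase signalling, 8 passed higher (28.6%, against 1.31% of all genes) and 0 lower in the kept PDX arrays, with a median difference of 0.33: Il1r1, Socs3, Osmr, Bcl3, Tnfrsf1a, Stat3, Tgm2 and Il6ra. Among the receptors, Osmr, the oncostatin M receptor, had a lowest, median and highest value of 7.42, 7.90 and 8.88 in PDX arrays, against 6.50, 6.81, 6.82, 6.94 and 7.0 in sham arrays. It differed by 1.28 (SE 0.19, 2.42-fold, adjusted p = 0.0120), with no overlap. Il1r1, the interleukin-1 receptor, differed by 1.48 (SE 0.33, adjusted p = 0.0366) and Il6ra, the interleukin-6 receptor, by 0.55 (adjusted p = 0.0315), while Il6st, its signalling partner, had 0.24 (adjusted p = 0.289).

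Downstream of the receptors, Stat3, the transcription factor they activate, had 8.67, 8.94 and 9.49 in PDX arrays, against 7.82, 8.24, 8.27, 8.29 and 8.47 in sham arrays. It differed by 0.80 (SE 0.13, adjusted p = 0.0175) without overlap. Socs3, a STAT3 target that restrains the same pathway and whose promoter is shown above, had 5.25, 6.13 and 7.57 in PDX arrays, against 4.51, 4.72, 4.80, 4.96 and 5.14 in sham arrays. It differed by 1.42 (SE 0.30, 2.68-fold, adjusted p = 0.0315). Cebpd, a C/EBP factor, had 0.46 in the kept arrays (adjusted p = 0.232). None of the 8 passed without the cohort 3 sham array. For Stat3, Socs3 and Bcl3 the PDX array of cohort 2 numbered 5 was far above the other PDX arrays.

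Of 25 measured glucocorticoid-responsive genes, 4 passed higher (16%, against 1.31% of all genes) and 0 lower, with a median of 0.17. None of the 4 passed without the cohort 3 sham array. Fkbp5, a chaperone of the glucocorticoid receptor and a standard readout of it, had a lowest, median and highest value of 5.44, 7.31 and 8.06 in PDX arrays, against 4.92, 5.28, 5.36, 5.82 and 5.90 in sham arrays. It differed by 1.58 (SE 0.32, 2.98-fold, adjusted p = 0.0278), and the lowest PDX array lay among the sham arrays. The other 3 were Mt2, Per1 and Irs2, and for Per1 and Irs2 the difference came from cohort 3, as described with the clock genes.

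The genes known for muscle breakdown gave 3 calls. Of 31 measured atrophy genes, 2 passed higher (Eif4ebp1, a brake on translation, and the ubiquitin ligase Cblb) and 1 lower (Fbxo40, a muscle ubiquitin ligase), with a median of 0.03. These are 6.45% higher against 1.31% of all genes and 3.23% lower against 1.51% of all genes, and 0 of the 31 passed without the cohort 3 sham array. Fbxo32, the ubiquitin ligase atrogin-1, had a lowest, median and highest value of 8.80, 9.22 and 9.54 in PDX arrays, against 9.17, 9.17, 9.28, 9.39 and 9.56 in sham arrays, which overlap throughout. Its difference was -0.11 (SE 0.11, adjusted p = 0.646). The tibialis anterior effect of Fbxo32 was 0.70 (adjusted p = 0.00157), and the diaphragm minus tibialis anterior difference was -0.81 (SE 0.20, adjusted p = 0.0224). Without cohort 3 in both muscles it was -0.64 (adjusted p = 0.193). Trim63, the ligase MuRF1, differed by 0.11 in the kept arrays (SE 0.20, adjusted p = 0.838). Foxo1, a transcription factor of both ligases, had 0.36 (adjusted p = 0.0533). Of 29 measured proteasome subunits and 28 autophagy and lysosome genes, 0 passed in either direction.

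Complement and macrophage lists each held 5 genes that were higher in PDX arrays, 33.3% and 22.7% of those measured against 1.31% of all genes. Without the cohort 3 sham array both counts were 0, and the medians were 0.74 and 0.82. Of 15 measured complement genes, 5 passed higher (Cfb, C1qc, C1s1, C4b and Serping1) and 0 lower, all 15 differences were positive, and the median was 0.74. The late component C7, a secreted protein of the membrane attack complex outside that list, had a lowest, median and highest value of 6.49, 7.01 and 8.61 in PDX arrays, against 5.27, 5.40, 5.46, 5.77 and 5.87 in sham arrays. It differed by 1.73 (SE 0.36, 3.32-fold, adjusted p = 0.0303). Of 22 measured macrophage markers, 5 passed higher (Ms4a7, Cd68, C1qc, Cd14 and Lyve1) and 0 lower, with a median of 0.67.

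Cd68, a lysosomal glycoprotein of macrophages, had 7.27, 7.78 and 8.50 in PDX arrays, against 6.05, 6.14, 6.57, 6.62 and 6.99 in sham arrays, and differed by 1.39 (SE 0.24, adjusted p = 0.0175) without overlap. C1qc, a chain of complement C1q made by tissue macrophages, differed by 1.18 (SE 0.18, adjusted p = 0.0132) in the kept diaphragm arrays and by -0.28 in the tibialis anterior, and the difference between the muscles was 1.46 (adjusted p = 0.00376). Without cohort 3 in both muscles it was 0.99 (adjusted p = 0.146). Adgre1, an adhesion receptor that marks mouse macrophages, had 0.33 (adjusted p = 0.500), and Csf1r, the receptor of the macrophage growth factor, had 0.64 (adjusted p = 0.0614). The mean level of the 22 markers was 5.43 to 6.44 in PDX arrays and 4.92 to 5.49 in sham arrays. Since RNA of whole muscle was measured, the number of cells of a type and the RNA per cell cannot be told apart. Macrophages also express acute-phase genes such as Cfb, Cd14 and Saa3, and the part of these marker levels in the acute-phase differences was not tested.

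Cd74, H2-Ab1 and H2-Aa, 3 genes of MHC class II antigen presentation picked after their values were seen and not from a list, also passed higher. Cd74, the invariant chain that escorts class II molecules, had a lowest, median and highest value of 7.08, 7.88 and 9.04 in PDX arrays, against 5.76, 6.22, 6.69, 7.11 and 7.39 in sham arrays. It differed by 1.49 (SE 0.17, 2.82-fold, adjusted p = 0.00609), and the overlap came from cohort 4, whose sham arrays were the highest. H2-Ab1, a class II chain, differed by 1.19 (SE 0.17, adjusted p = 0.0107) and its partner H2-Aa by 1.44 (SE 0.22, adjusted p = 0.0132). The 3 effects in the tibialis anterior were -0.30, -0.15 and -0.16, and they were larger in the diaphragm by 1.79, 1.34 and 1.60 (adjusted p = 0.00124, 0.00235 and 0.00420). Without cohort 3 the differences were 1.47, 1.20 and 1.35, and that of H2-Aa no longer passed (adjusted p = 0.0882). The further genes named below from the fits with 1 array left out were also picked after their values were seen.

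Of 27 measured chemokines and cytokines, 2 passed higher (Ccl8 and Cxcl14) and 1 lower (Il15), and 0 without the cohort 3 sham array. These are 7.41% higher against 1.31% of all genes and 3.7% lower against 1.51% of all genes. Ccl8, a monocyte-attracting chemokine made by macrophages, had a lowest, median and highest value of 4.03, 4.91 and 6.83 in PDX arrays, against 2.92, 3.10, 3.13, 3.24 and 3.62 in sham arrays. The difference was 2.02 (SE 0.41, adjusted p = 0.0278), and all sham arrays lay below the median of all values. Il15, a cytokine of muscle fibres, had 4.30, 5.38 and 6.27 in PDX arrays, against 6.46, 6.59, 6.66, 6.67 and 6.72 in sham arrays. It differed by -1.23 (SE 0.27, adjusted p = 0.0355) without overlap. Csf2rb, the shared receptor chain of interleukin-3, interleukin-5 and GM-CSF, differed by 1.71 (SE 0.26, adjusted p = 0.0128) and also passed in the tibialis anterior (1.07, adjusted p = 0.00542).

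Of 17 measured endothelial markers, 5 passed higher (Lyve1, Ackr1, Icam1, Vwf and Esam), 29.4% against 1.31% of all genes, and 0 without the cohort 3 sham array, with Icam1, a leukocyte adhesion molecule, at 0.64 (adjusted p = 0.0132). Of 16 measured mesothelial markers, 2 passed higher, 12.5% against 1.31% of all genes. Mesothelium covers the diaphragm surface, and the mean of its markers was 5.78 to 7.02 in PDX arrays and 5.59 to 6.40 in sham arrays, against 3.57 to 3.95 in PDX and 3.48 to 3.74 in sham tibialis anterior. The 2 were Krt18, a keratin (0.77, adjusted p = 0.0175), and Upk1b, a uroplakin (0.94, adjusted p = 0.0247). Of 15 measured adipocyte markers, 1 passed lower, Plin1, the coat protein of lipid droplets (-1.02, adjusted p = 0.0430). The mean of the adipocyte markers was 5.58 to 6.85 in PDX arrays and 6.09 to 6.87 in sham arrays, and its part in the lower Pck1 values was not tested. Of 10 mast cell markers, 1 passed lower, the protease gene Mcpt4 (-1.45, adjusted p = 0.0175). Of 18 fibroblast markers, 1 passed higher (Cxcl14), 5.56% against 1.31% of all genes. The lower calls among adipocyte and mast cell markers were 6.67% and 10% of those lists, against 1.51% of all genes. Pancreatic acinar, tendon, Schwann cell and erythroid markers gave 0 calls.

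Most matrix genes had a positive difference in the kept diaphragm arrays, and 1 passed higher (3.45%, against 1.31% of all genes). Of 29 measured fibrillar collagen and matrix genes, 25 had a positive difference and the median was 0.51. The gene that passed was Thbs2, the matricellular protein thrombospondin 2 (0.97, SE 0.15, adjusted p = 0.0132). Col1a1, a chain of type I collagen, had a lowest, median and highest value of 8.13, 9.08 and 10.28 in PDX arrays, against 7.89, 8.11, 8.25, 8.25 and 8.59 in sham arrays. The lower PDX arrays lay within the sham range, and the difference was 0.87 (SE 0.29, adjusted p = 0.116). In the tibialis anterior Col1a1 had an effect of -2.25 (adjusted p = 8.13e-08), and the difference between the muscles was 3.13 (SE 0.33, adjusted p = 4.90e-06). Of the 29 matrix genes, 19 differed between the muscles by this test, against 515 (2.22%) of all 23185 genes. Of 16 basement membrane genes, 0 passed.

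Differences of mitochondrial genes were small and mostly negative. Of 44 measured oxidative phosphorylation genes, 1 had a positive difference, 6 passed lower (13.6%, against 1.51% of all genes) and 0 higher, and the median was -0.34. Cox7a1, the muscle form of a cytochrome c oxidase subunit, ranged from 9.69 to 10.35 in PDX arrays, against 10.31, 10.32, 10.41, 10.52 and 10.97 in sham arrays. It differed by -0.60 (SE 0.12, adjusted p = 0.0268), with 1 PDX array inside the sham range. The other 5 were Cyc1, Ndufab1, Ndufs8, Uqcrfs1 and Ndufb5. The mean of the 44 genes was 7.88 to 8.30 in PDX arrays and 8.32 to 8.60 in sham arrays, which by a narrow margin did not overlap. In the excluded arrays of all cohorts it was 7.68 to 8.27 in PDX and 8.11 to 8.40 in sham arrays, which overlap. The means of the tricarboxylic acid cycle, glycolysis and mitochondrial regulator lists also did not overlap in the kept arrays.

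Of 18 measured mitochondrial regulators, 4 passed lower (22.2%, against 1.51% of all genes) and 0 higher. They were Tfam, Tfb1m and Tfb2m, factors of mitochondrial transcription and ribosomal RNA modification, and Ckmt2, the mitochondrial creatine kinase of muscle. Ckmt2 differed by -0.58 (SE 0.12, adjusted p = 0.0308) without overlap. Of 22 tricarboxylic acid cycle and pyruvate dehydrogenase genes, 1 passed lower (Pdhx, -0.58, adjusted p = 0.0230), with a median of -0.27. That is 4.55% of the list, against 1.51% of all genes. Of 21 glycolysis and glycogen genes, 1 passed lower (Phkg1, 4.76% against 1.51% of all genes), with a median of -0.30. Of 25 fatty acid genes 0 passed, with a median of -0.18. All these calls except Phkg1 were lost without the cohort 3 sham array, while the medians became -0.33, -0.37, -0.28, -0.36 and -0.27.

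Among contractile genes 1 passed, 3.03% of the list against 1.31% of all genes. Of 33 sarcomere genes, Ankrd2, a stretch-responsive protein of the Z-disc region, passed higher, with a lowest, median and highest value of 6.96, 8.47 and 9.52 in PDX arrays, against 6.59, 6.61, 6.95, 6.99 and 7.30 in sham arrays. It differed by 1.58 (SE 0.35, adjusted p = 0.0378), and the lowest PDX array lay among the sham arrays. Myh4, the fastest myosin heavy chain, ranged from 7.32 to 10.56 in PDX arrays and from 6.95 to 11.03 in sham arrays, a spread within groups that leaves its difference of 0.01 (SE 0.47) poorly determined. Of 22 satellite cell and regeneration genes, 21 type I interferon genes, 22 cytosolic ribosomal protein genes and 25 cell cycle genes, 0 passed. Of 21 neuromuscular junction genes, Runx1, which rises in denervated muscle, passed higher (1.04, adjusted p = 0.0173) and Colq, which anchors acetylcholinesterase, lower (-0.63, adjusted p = 0.0198). Each is 4.76% of the list, against 1.31% higher and 1.51% lower over all genes. Of 19 iron and metal genes, 2 passed higher, Mt2 and the zinc and manganese importer Slc39a8 (0.84, adjusted p = 0.0240). That is 10.5% of the list, against 1.31% of all genes.

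Chaperone genes gave 2 calls, both lower in PDX arrays, 8.33% of the list against 1.51% of all genes. Hsph1, which encodes the heat shock protein Hsp105, had a lowest, median and highest value of 5.15, 5.71 and 6.39 in PDX arrays, against 6.73, 6.77, 6.89, 7.27 and 7.33 in sham arrays. The groups did not overlap, and the difference was -1.21 (SE 0.09, adjusted p = 0.000255). It was -1.01 without the cohort 3 sham array (adjusted p = 0.00963). The tibialis anterior effect was -0.19, and the difference between the muscles was -1.01 (SE 0.18, adjusted p = 0.00235). Of 24 heat shock and ER stress genes, Hspe1, the mitochondrial chaperonin partner, was the other that passed (-0.62, adjusted p = 0.0157). Hspa1a had -0.65 (adjusted p = 0.155) and Hspa8 -0.27 (adjusted p = 0.164).

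Insulin and IGF signalling gave 3 higher and 1 lower of 24 genes. These are 12.5% higher against 1.31% of all genes and 4.17% lower against 1.51% of all genes. Grb14, an adaptor that inhibits the insulin receptor, had a lowest, median and highest value of 5.65, 6.07 and 6.72 in PDX arrays, against 7.23, 7.37, 7.38, 7.43 and 7.56 in sham arrays. It differed by -1.30 (SE 0.16, to 0.406 times the sham level, adjusted p = 0.00666) without overlap. Igf1r, the IGF-1 receptor, differed by 0.64 (adjusted p = 0.0198), and the other 2 were Eif4ebp1 and Irs2.

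The 10 genes with the lowest differences among those that passed with 1 sign in all cohorts are described next. Tecrl, an endoplasmic reticulum protein of heart and muscle, had a lowest, median and highest value of 3.70, 4.91 and 5.60 in PDX arrays, against 5.87, 6.32, 6.75, 6.78 and 7.45 in sham arrays. It differed by -2.04 (SE 0.37, to 0.243 times the sham level, adjusted p = 0.0198) in the diaphragm and by -0.09 in the tibialis anterior, and the difference between the muscles was -1.95 (adjusted p = 0.00112). Cyfip2, a subunit of the WAVE complex that drives actin branching, had 3.93, 4.52 and 5.78 in PDX arrays, against 5.37, 6.15, 6.51, 6.71 and 6.97 in sham arrays. One sham array lay inside the PDX range. Cyfip2 differed by -1.82 (SE 0.23, adjusted p = 0.00696) and also passed in the tibialis anterior (-1.57, adjusted p = 0.000135). The other 8 were Apol6, Abhd18, Mcpt4, Pcp4l1, Slc41a3, Lrrc30, Grb14 and Slc16a7, with differences from -1.73 to -1.29, and 7 of these 8 had every PDX array below every sham array. The exception was Lrrc30, whose difference was -1.37 and became -0.87 without the cohort 3 sham array. Over all genes 533 (2.30%) had groups without overlap. These genes were chosen for large differences in the same arrays, so their separation is no further support.

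**Figure D3:**
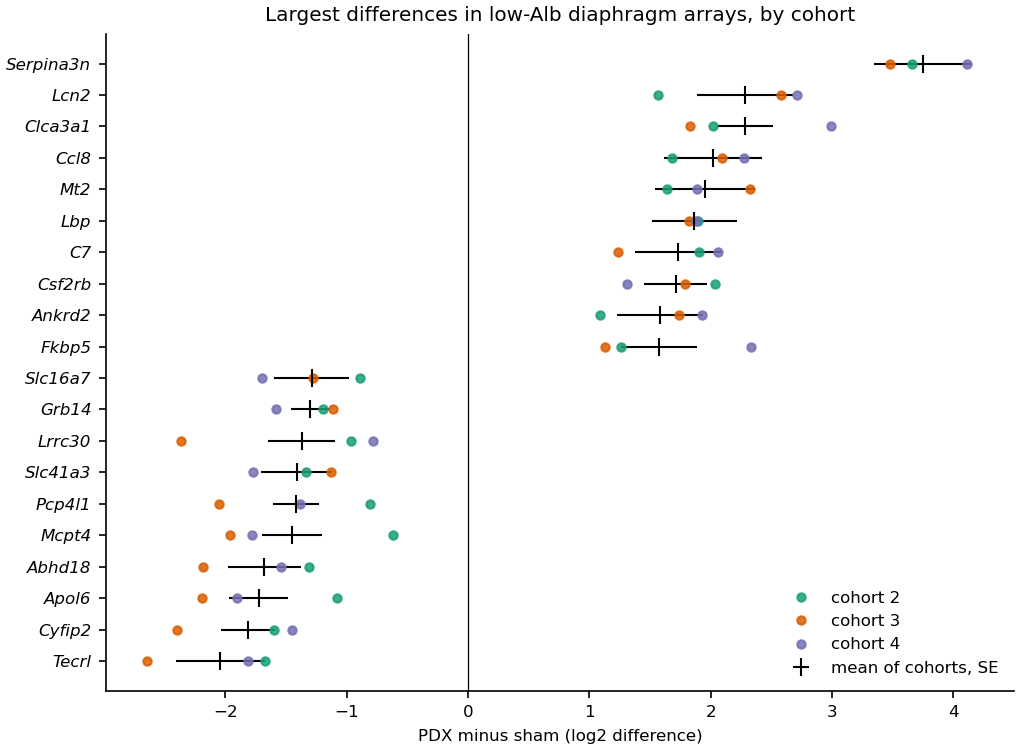
PDX minus sham log2 difference of the 10 highest and 10 lowest genes in the kept diaphragm arrays, with the mean over cohorts and its standard error (black) and each cohort's own difference in colour. Every cohort value lies on the same side of 0, which the rule for naming these genes required, and cohort 3, which rests on 1 sham array, is the farthest from 0 for Tecrl, Cyfip2, Apol6, Abhd18, Mcpt4, Pcp4l1 and Lrrc30.

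Several calls among clock genes rested on 1 sham array. Of 18 measured circadian genes, 6 passed higher (Per1, Per2, Per3, Bhlhe40, Bhlhe41 and Cry2), 33.3% against 1.31% of all genes. The 1 that passed lower was Arntl, 5.56% against 1.51% of all genes. None of the 7 passed without the cohort 3 sham array. Per1, a repressor of the clock, had a lowest, median and highest value of 7.89, 8.53 and 9.05 in PDX arrays, against 6.0 in the cohort 3 sham array and 8.01, 8.17, 8.50 and 8.66 in the other sham arrays. Its effect was 0.10, 2.69 and 0.21 in cohorts 2, 3 and 4, and these effects differed (F test, adjusted p = 0.0221). The average of 1.00 (adjusted p = 0.00826) became 0.15 (adjusted p = 0.649) without that sham array. Bhlhe41, a transcriptional repressor of the clock, stood at 2.86 in the same sham array against 6.19 to 6.83 in the other sham arrays, and its effect was 0.74 with that array and -0.40 without it.

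Per2 differed by 1.07 with the cohort 3 sham array and by 0.57 without it (adjusted p = 0.0942). Irs2, an insulin receptor substrate, differed by 0.86 with it and by 0.03 without it (adjusted p = 0.963). Arntl, the clock activator BMAL1, had 7.16 in that sham array and 4.89, 4.99, 5.21 and 5.36 in the other sham arrays, and 3.98 to 5.67 in PDX arrays. Its effect was -1.20 with that sham array (adjusted p = 0.0155) and -0.86 without it (adjusted p = 0.0541), and it was -0.85, -1.87 and -0.88 in cohorts 2, 3 and 4. In the tibialis anterior, the sham arrays of cohort 3 also had the lowest Per1 and Per2 values among the sham arrays of cohorts 2 to 4. The hour at which each mouse was killed is not given in the sources used here, and its part in these values was not tested.

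**Figure D4:**
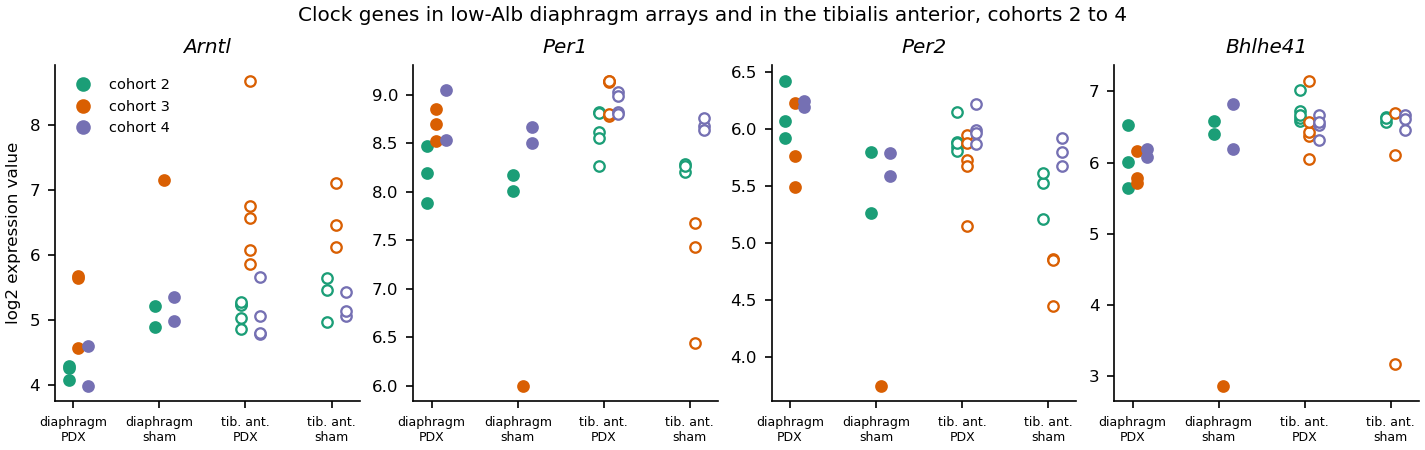
Log2 values of Arntl, Per1, Per2 and Bhlhe41 in the kept diaphragm arrays (filled) and the tibialis anterior arrays (open) of cohorts 2 to 4, by treatment, with cohorts in colour. The 1 kept sham array of cohort 3 lies at 6.0 for Per1 and 2.86 for Bhlhe41, below all other kept arrays, and cohort 3 sham arrays of the tibialis anterior are also low for Per1 and Per2.

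The 17 genes that passed in every fit with 1 array left out are the calls that no single kept array carries. On the higher side were 9: Serpina3n, Clca3a1, Cd74, Apod, Plac8, Tmem176b, H2-Ab1, Col6a5 and Atp9a. Clca3a1, a modulator of calcium-activated chloride currents, had a lowest, median and highest value of 5.42, 5.93 and 6.77 in PDX arrays, against 3.16, 3.41, 4.05, 4.12 and 4.15 in sham arrays, and differed by 2.28 (SE 0.23, 4.87-fold, adjusted p = 0.00260). It also passed in the tibialis anterior (1.03, adjusted p = 0.00510). Col6a5, a chain of type VI collagen, had 1.12 (SE 0.16, adjusted p = 0.0107) in the diaphragm and 0.05 in the tibialis anterior, a difference of 1.07 (adjusted p = 0.000924).

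On the lower side were 8: Grb14, Hsph1, Gm5420, Phkg1, Ostn, Wdyhv1, Nkain1 and Mkks. Phkg1, the catalytic subunit of muscle phosphorylase kinase, had 6.34, 6.75 and 7.20 in PDX arrays, against 7.30, 7.79, 7.86, 7.94 and 7.97 in sham arrays, and differed by -0.93 (SE 0.13, adjusted p = 0.0107) without overlap. Ostn, which encodes the muscle-secreted peptide musclin, had 3.64, 3.82 and 4.09 in PDX arrays, with a range of 4.30 to 5.73 in sham arrays. It differed by -0.92 (SE 0.11, adjusted p = 0.00666), and by -1.79 in the tibialis anterior (adjusted p = 0.00105). Of the 17 genes, Cd74 and H2-Ab1 were the pair whose groups overlapped, and in both the highest sham array was of cohort 4. Over all genes 2.30% had groups without overlap, and the rule that chose the 17 favours such separation.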

How the data were processed

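RNA of the diaphragm and the tibialis anterior was hybridised to 58 Affymetrix arrays of 25206 probe sets. The authors deposited log2 values. The submitters' processing notes name RMA, affy 1.36.1 and R 2.15.1, and the log2 scale was read from the range of the values. The platform annotation named 23185 probe sets with 1 gene each, all matched by gene identifier in the RefSeq gene table, and the other 2021 were left out. Cohort and treatment came from the labels, and Alb values chose the arrays. Limma 3.58.1 in R 4.3.3 was fitted to the kept arrays with 1 mean per cohort and treatment, which left 7 residual degrees of freedom. Two-sided p-values were adjusted by the Benjamini-Hochberg method over all named genes, and an adjusted p under 0.05 counted as passing. Differences between muscles, or between kept and excluded arrays, came from 1 fit over both sets.

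The members and all 37 lists (25 gene lists and 12 marker lists) were chosen with earlier results of these data known. Named genes were the 10 highest and 10 lowest passing genes with the same sign in every cohort, leaving out predicted genes, RIKEN clones, olfactory and vomeronasal receptors and hepatocyte markers, the acute-phase members, up to 4 genes of each other list (if none passed, the 2 genes of lowest p) and a fixed set of muscle, signalling and glucocorticoid genes. The highest correlation between 2 arrays was 0.993, so no array was treated as a duplicate. The number of arrays limits the precision. Replicate numbers were not used to pair the samples in the main fits. The correlation of deviations was -0.031 for the testable pair of cohort 4. It was between -0.25 and 0.10 for the 12 same-numbered pairs of diaphragm and tibialis anterior arrays. So few pairs cannot exclude that same-numbered arrays share an animal, and the main tests between muscles treat all arrays as independent. Alternatives varied the Alb limit, covariates, normalization, prior, filter on dim probe sets, cohorts and arrays.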

Additional observations from a re-analysis of the deposited data

Results flagged for a closer look

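For each named gene, the distance of the highest or lowest array from its nearest neighbour was divided by the range of its group and compared with Dixon's critical value. Of 256 groups tested, 19 held an array beyond it. Chance gives about 1 in 20 where the arrays of a group share 1 normal distribution. Here each group pools 3 cohorts, so a difference between cohorts can also place an array beyond the value, and the genes are not independent.

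The cohort 3 sham array was such an array for 11 genes. It was the highest of the 5 sham arrays for Arntl (7.16, gap 0.796 of the range), Ckmt2 (11.20, gap 0.908), Lrrc30 (8.36, gap 0.755) and Ndufs8 (9.32, gap 0.814). It was the lowest for Bhlhe41 (2.86, gap 0.841), Mcm5 (2.97, gap 0.891), Myh4 (6.95, gap 0.845), Per1 (6.0, gap 0.753), Per2 (3.75, gap 0.736), Phkg1 (7.30, gap 0.726) and Upk1b (6.03, gap 0.786). A single sham array of cohort 4 was the highest for each of 2 further genes, number 2 for Cxcl14 (7.19, gap 0.933) and number 1 for Slc39a8 (7.14, gap 0.874).

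Among PDX arrays, the cohort 2 array numbered 5 was the highest for Bcl3 (7.11, gap 0.598), Ptx3 (5.45, gap 0.639), Runx1 (7.15, gap 0.610), Socs3 (7.57, gap 0.528), Stat3 (9.49, gap 0.568) and Hamp (4.07, gap 0.547).

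The tumour effect differed between cohorts by the F test for Bhlhe41 and Per1, both with an adjusted p of 0.0221. For Bhlhe41 it was -0.43, 3.03 and -0.37 in cohorts 2, 3 and 4, and for Per1 it was 0.10, 2.69 and 0.21.

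The effect in the kept diaphragm arrays differed from that in the tibialis anterior, in limma's test of the difference, for Serping1 (by 1.19, adjusted p = 0.00156), Lbp (by 1.84, adjusted p = 0.00307), Apod (by 1.29, adjusted p = 0.00420), Timp1 (by 1.80, adjusted p = 0.0348) and Cfb (by 1.08, adjusted p = 0.0477).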

How the results depend on the processing

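Signs changed less than the calls did. The passing genes were chosen for their effect in these arrays, and most alternatives reuse nearly the same arrays. Kept signs are therefore no independent support for a direction. The 654 passing genes all kept their sign under the Alb limits of 8 and 10, both normalizations, the trended prior and the additive cohort block, and 648 kept it without cohort 3, 653 with Alb as a covariate in all diaphragm arrays of 4 cohorts, and 629 with an Alb limit of 7. The count of passing genes depended on the choices. It was 1501 (680 higher, 821 lower in PDX) over all diaphragm arrays of these cohorts, 1019 (487 and 532) with an Alb limit of 8 and 1003 (461 and 542) with a limit of 10. The limit of 8 dropped only the cohort 2 PDX array numbered 4, so it is the same fit as leaving that array out below. A limit of 7 left 1 residual degree of freedom and 0 calls (0 higher, 0 lower, 0 of the acute-phase list), which says nothing about stability. Alb as a covariate gave 33 (18 and 15, 2 acute-phase genes) in the kept arrays and 3277 (1534 and 1743) in all diaphragm arrays of 4 cohorts. Genes above the median level alone gave 1291 (600 and 691). Leaving out cohort 2, 3 or 4 gave 67 (41 and 26, 4 acute-phase), 35 (18 and 17, 2 acute-phase) and 53 (42 and 11, 3 acute-phase). The mean of the hepatocyte markers as a covariate, chosen after seeing the data, gave 6 (3 and 3, 2 acute-phase). Without 1 array the counts ran from 35 to 1019 in all, 18 to 511 higher, 17 to 532 lower and 2 to 13 in the acute-phase list. The arrays that moved the total by over 1.5 times were 5 PDX arrays (cohort 2 numbers 3 and 4, 345 and 1019; cohort 3 number 1, 238; cohort 4 numbers 1 and 2, 1016 and 85) and all 5 sham arrays (cohort 2 numbers 1 and 2, 53 and 82; cohort 3, 35; cohort 4 numbers 1 and 2, 153 and 58). A block for the replicate number, possible for 3 pairs with 2 residual degrees of freedom, gave 14 (5 and 9, 3 acute-phase). The numbers are not shown to pair the samples. With an Alb limit of 7, Cd14 (-0.30), Irs2 (-0.29) and Bhlhe41 (-0.69) turned negative, and Bhlhe41 (-0.40) did so without cohort 3 or its sham array. Without 1 array, Bhlhe41 ran from -0.40 to 0.85. The cause of these shifts was not tested. The count of acute-phase genes that differed from the tibialis anterior was 4 or 5 in each alternative run.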

Other observations

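The F test between cohorts also picked the genes below, each with its largest effect in cohort 3, which rests on 1 sham array. Nr4a3, an orphan nuclear receptor of muscle that responds within hours to contraction, had effects of 0.05, 2.96 and -0.86 in cohorts 2, 3 and 4 (F test, adjusted p = 0.000462). Nr4a1, its relative, had -0.36, 2.49 and -0.50 (adjusted p = 0.0294), and its average of 0.54 did not pass (adjusted p = 0.0768). Coq10b, which serves coenzyme Q in the respiratory chain, had -0.13, 1.75 and -0.44 (adjusted p = 0.00727). Slc25a25, a mitochondrial ATP-Mg and phosphate carrier, had -0.54, 1.67 and -0.71 (adjusted p = 0.0294). The clock repressors Per3 (-0.06, 2.25 and -0.10, adjusted p = 0.0294) and Bhlhe40 (0.24, 2.04 and -0.17, adjusted p = 0.0396) had the same pattern.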
